A study of Homo sapiens with 10 samples.

Results

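U2932 is an established human cell line from a diffuse large B cell lymphoma, a tumour of mature B lymphocytes. RNA of 10 of its clones was sequenced, 5 labelled CREBBP+/+ and 5 labelled CREBBP+/-, which denotes 1 altered allele of the gene. Of the 10 libraries, 8 are compared here as 2 sets that cross the genotypes. WT_1, WT_2 (CREBBP+/+) and Het_8 (CREBBP+/-) form the MYC-high set of 3 libraries, and WT_3, WT_4, WT_5 (CREBBP+/+), Het_6 and Het_7 (CREBBP+/-) form the BCL6-high set of 5. Het_9 and Het_10, both CREBBP+/-, belonged to neither set and are given only beside the others. The sets were chosen by the measured counts themselves, from a clustering of the libraries over all genes. Every difference between them is therefore a description, without a test. No agent was added: per the labels' protocols all clones were grown in RPMI with serum. How the clones were derived, how the CREBBP allele was altered and whether the libraries came from separate cultures is not given in the sources used here. All p-values below measure only the spread between these libraries.

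U2932 is known as a line whose cells fall into subpopulations with unlike genomes and unlike expression. Mature B cells divide and edit their antibody genes in the germinal centre under the repressor BCL6, and become antibody-secreting plasma cells once PRDM1 (BLIMP1), a repressor of the B cell programme, is switched on. BCL6 and PRDM1 repress each other's genes. MYC, a transcription factor that pairs with MAX, raises the transcription of genes for ribosome assembly, nucleotide synthesis and growth. Lymphomas are sorted by whether they resemble germinal centre cells or activated B cells, and BCL2, which blocks cell death, is frequently raised in either kind.

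The targeted gene was measured first. CREBBP, a histone acetyltransferase, stood at 118 and 103 CPM (counts per 1e+06 counts of a library) in WT_1 and WT_2, at 102, 114 and 135 CPM in WT_3, WT_4 and WT_5, at 56.5 CPM in Het_8, at 71.2 and 77.2 CPM in Het_6 and Het_7, and at 61.4 and 80.5 CPM in Het_9 and Het_10. All 5 libraries labelled CREBBP+/- lay below all 5 labelled CREBBP+/+. The 8 libraries held between 16.5 and 23 M counts (M, 1e+06 counts) and Het_9, the shallowest, 10.6 M. The B cell genes PAX5, MS4A1, CD79A and CD79B were expressed in all 8 libraries, PAX5 at 372 to 721 CPM. Of 26 markers of T, NK, myeloid, red blood, stromal, endothelial and epithelial cells, 24 were under 1 CPM in each of the 8 libraries and 8 had no count at all, among them CD3D, CD2, NKG7 and HBB. Reads of the mitochondrial genome made up 7.85% to 10.2% of counts, with both sets spanning most of that range. On the first principal component of the 8 libraries, which held 71.1% of the variance, WT_1, WT_2 and Het_8 scored 43.8, 43.4 and 40.7 and the other 5 between -29.5 and -22.1. Libraries of 1 set differed by 0.18 to 0.39 (root mean square difference in log2 CPM over genes), and libraries of different sets by 0.63 to 0.71.

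The genes that give the sets their names differed as the names say. MYC stood at 139, 141 and 128 CPM in WT_1, WT_2 and Het_8, against 46.6, 29.0 and 27.5 CPM in WT_3, WT_4 and WT_5 and 52.1 and 49.0 CPM in Het_6 and Het_7. The sets did not overlap, and WT_4 and WT_5 were the lowest. The means were 136 ± 6.93 CPM (SD, n = 3) and 40.9 ± 11.7 CPM (SD, n = 5), a ratio of 3.32. PRDM1 (chr6:105993463-106109939, GRCh38) was close to silent in the MYC-high set, at 1.78, 3.69 and 2.28 CPM, and stood at 66.0, 44.5, 46.0, 48.1 and 39.5 CPM in the BCL6-high set. Its log2 fold change, fitted with genotype as a covariate and given as MYC-high over BCL6-high set throughout, was -4.24 (SE 0.25). The SE of such a difference, here and below, was derived from the same fit and is no test of the sets. In a bulk sample, fewer cells that express a gene and less RNA per cell cannot be told apart.

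**Figure D1:**
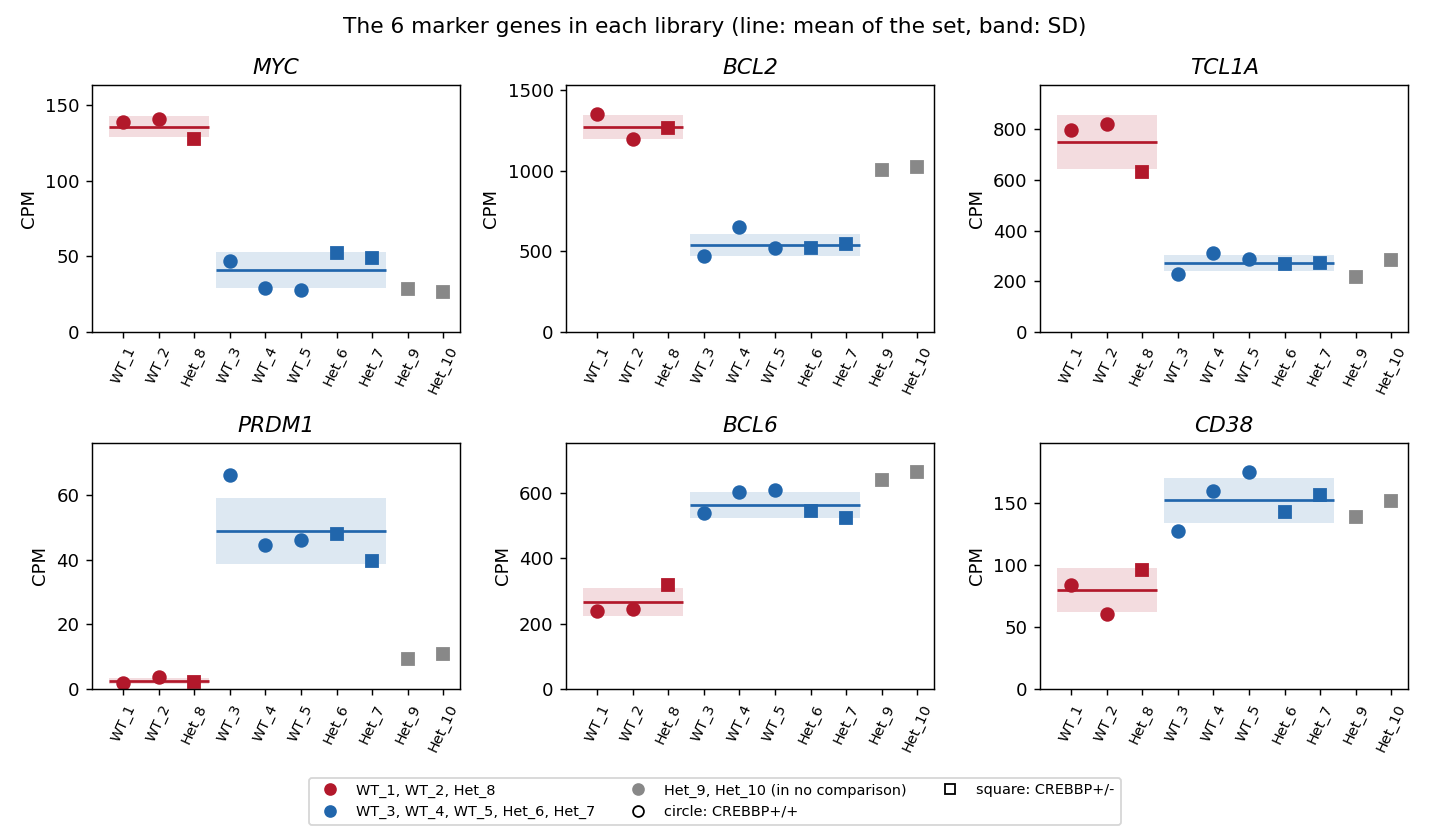
CPM of MYC, BCL2, TCL1A, PRDM1, BCL6 and CD38 in each of the 10 libraries; the line is the mean of a set and the band its SD (n = 3 and n = 5). MYC, BCL2 and TCL1A lie higher in WT_1, WT_2 and Het_8 and PRDM1, BCL6 and CD38 lower, with no overlap. Het_9 and Het_10 lie near the BCL6-high set in MYC, TCL1A and BCL6 and between the sets in BCL2 and PRDM1.

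BCL2 (chr18:63123346-63320128) was abundant everywhere. It reached 1349, 1196 and 1266 CPM in WT_1, WT_2 and Het_8 and 468, 649, 517, 519 and 543 CPM in WT_3, WT_4, WT_5, Het_6 and Het_7, a log2 fold change of 1.24 (SE 0.10). TCL1A (chr14:95709947-95714196), a coactivator of AKT expressed in naive and germinal centre B cells, stood at 798, 823 and 630 CPM against 226 to 310 CPM, 1.45 (SE 0.11) on the log2 scale. BCL6 (chr3:187721377-187745725) stood at 240, 246 and 317 CPM against 537, 603, 608, 545 and 524 CPM, -1.07 (SE 0.11). CD38, a surface enzyme of germinal centre and plasma cells, was the weakest of the 6. It stood at 83.4, 60.8 and 95.8 CPM against 127 to 175 CPM, -0.93 (SE 0.15). Het_9 and Het_10 resembled the BCL6-high set in MYC (28.5 and 26.5 CPM), TCL1A (217 and 284 CPM) and BCL6 (639 and 663 CPM). Their BCL2 (1003 and 1021 CPM) and PRDM1 (9.27 and 10.8 CPM) lay between the sets.

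Across 12179 genes that passed a filter on low counts, a gene is called separating below where no library of a set overlapped the other set in CPM and the fitted difference was at least 2-fold. By this rule 627 genes were higher in the MYC-high set (5.15% of those tested) and 826 lower (6.78%), 1453 in all (11.9%). Absence of overlap alone held for 5598 genes (46%), 2724 of them higher (22.4%) and 2874 lower (23.6%). The median over all genes was -0.01 on the log2 scale. CD38 lies just outside the 2-fold limit and ERN1, a sensor of unfolded protein with a log2 fold change of 1.00, just inside it. Since the sets were cut from these genes, the counts describe how far apart the sets lie and support nothing further.

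The largest differences were on-off differences. CRIM1, a membrane protein that binds bone morphogenetic proteins, stood at 13.6, 10.6 and 13.0 CPM in WT_1, WT_2 and Het_8 and had no count in the other 5 libraries, which makes it at least 432-fold higher (floor of 3 counts over the set). ERBB4, a receptor tyrosine kinase of the EGF receptor family that is not part of the B cell programme, stood at 26.2, 28.0 and 32.3 CPM against 0.10 CPM in WT_5 and no count in the 4 others. CELF2, an RNA-binding splicing regulator, stood at 94.0, 103 and 59.2 CPM against at most 0.87 CPM (Het_7). These 3 genes were thus at or near 0 throughout the BCL6-high set. AKAP12, a scaffold for protein kinase A, stood at 38.4 to 40.1 CPM against 0.05 to 0.51 CPM. Others among the 15 with the largest difference upward were STS, NUDT11, MYEF2, PCSK6, UGGT2, SLC12A7, MSR1, LRRN3, TTC39C and HDGFL3. MSR1 encodes a scavenger receptor best known from macrophages. It stood at 9.39 to 12.6 CPM against at most 0.05 CPM. Of the myeloid markers, LYZ, S100A8, S100A9 and FCN1 were at or near 0 in all 8 libraries, and CD14 stood at 0.31 to 1.07 CPM. CSF1R went the way of MSR1 at a low level, with 0.06, 0.49 and 0.70 CPM in WT_1, WT_2 and Het_8. It had no count in the BCL6-high set.

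In the other direction, TGFA, a ligand of the EGF receptor, had no count in WT_1, WT_2 or Het_8 and stood at 16.6, 17.2, 18.2, 15.2 and 27.8 CPM in the BCL6-high set, at least 336-fold lower in the MYC-high set by the same floor. ADD2, a subunit of adducin in the membrane skeleton whose gene lies close to TGFA on chromosome 2, had a single count in the MYC-high set, in WT_2, and stood at 58.1 to 64.2 CPM in the other. FEZ1, CTNND2, KCNQ1, NLGN4X, TRPC4, MAP7D2, CREB5, KIAA1217, SSTR2 and DDAH1 had mean levels of 16.6 to 64.8 CPM in the BCL6-high set and of at most 0.81 CPM in the MYC-high set. SSTR2, a receptor for somatostatin, stood at 0.80, 0.98 and 0.65 CPM against 53.2 to 72.7 CPM. Many of these genes are best known from neurons or epithelia, and many were even within each set. Some were not. CUX2, a homeobox factor, stood at 35.6 and 47.4 CPM in WT_4 and WT_5 but at 5.06, 6.46 and 2.16 CPM in WT_3, Het_6 and Het_7. SOCS3, described with its pathway below, went the opposite way within the same set.

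**Figure D2:**
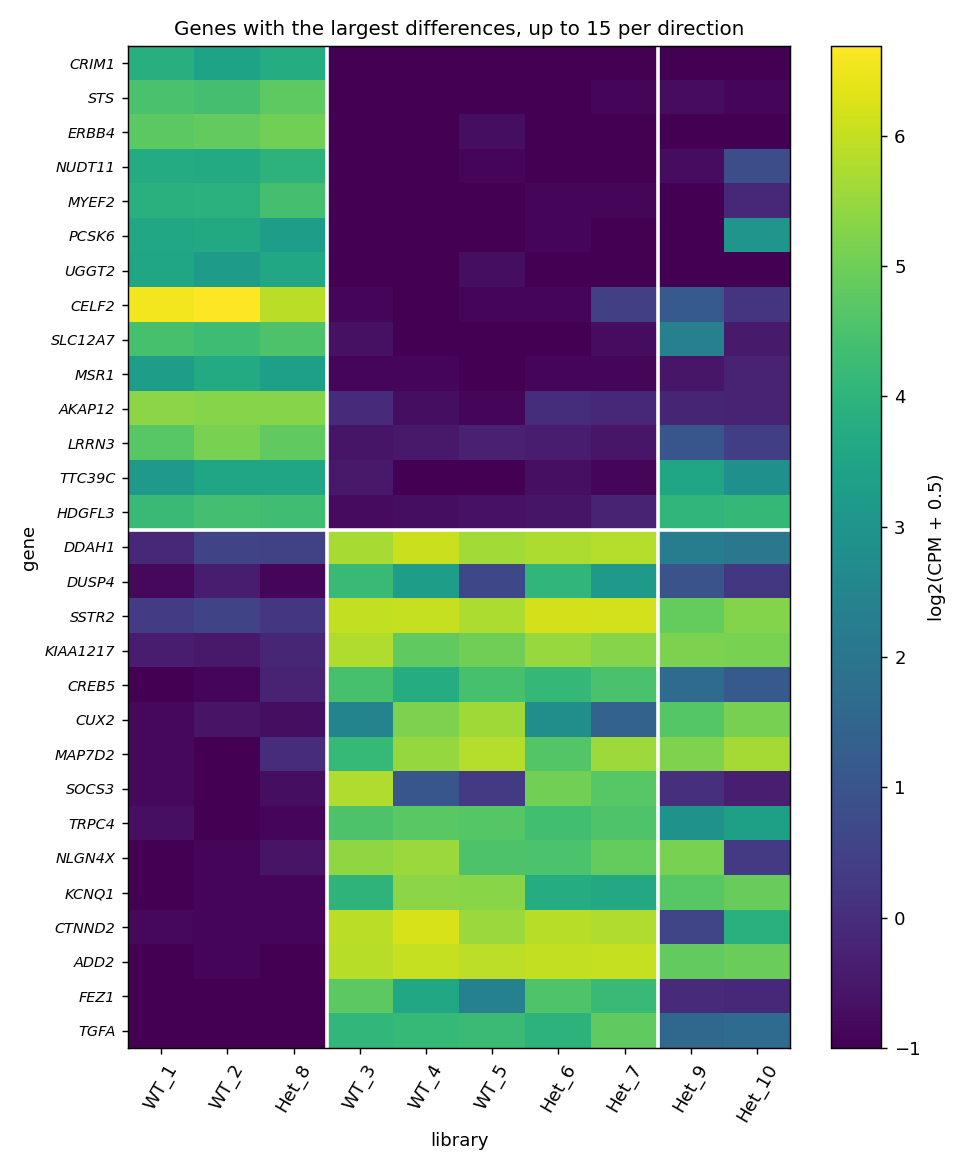
Level, as log2(CPM + 0.5), of up to 15 genes per direction with the largest difference among protein-coding separating genes at 10 CPM or more, in each of the 10 libraries; white lines part the sets and the directions. WT_1, WT_2 and Het_8 look alike in nearly every gene, CUX2 and SOCS3 vary within the set of 5, and Het_9 and Het_10 carry HDGFL3 and TTC39C from the upper block and most of the lower block.

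Among abundant genes, 67 separating genes reached 100 CPM in the MYC-high set and 96 in the BCL6-high set. The following ones were chosen after their values were seen. C11orf54 stood at 306, 309 and 307 CPM against 15.2 to 20.9 CPM, a ratio of 17.2. PDCD4, an inhibitor of translation initiation, stood at 247 to 289 CPM against 41.6 to 50.7 CPM, and ID3, an inhibitor of E proteins that is often mutated in Burkitt lymphoma, at 99.0 to 114 CPM against 16.4 to 23.4 CPM. KDM5C and SMC1A, X-linked genes for a histone demethylase and a cohesin subunit, were 3.89 and 3.20 times as high. In the other direction stood RAB15 (10.7 ± 2.65 against 208 ± 68.0 CPM), the protease CTSH (15.4 ± 10.3 against 188 ± 41.7 CPM), BASP1 (22.3 ± 2.6 against 198 ± 32.5 CPM), GADD45B (19.4 ± 2.25 against 114 ± 24.5 CPM) and KLHL6, a ubiquitin ligase adaptor of the germinal centre (290 ± 18.2 against 978 ± 92.7 CPM; SD, n = 3 and n = 5).

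Germinal centre genes lay lower in the MYC-high set beyond BCL6 itself. Of 25 listed genes, all tested, 13 were separating and lower and 2 separating and higher, beside 6.78% and 5.15% of all genes. The median log2 fold change was -1.01. SERPINA9 (GCET1), a protease inhibitor of germinal centre B cells, stood at 5.64 CPM in WT_1, 16.5 CPM in WT_2 and 90.9 CPM in Het_8, against 575, 554, 548, 536 and 481 CPM. Het_8 was above its partners but far below every library of the other set. LMO2, a LIM-domain adaptor used to recognise germinal centre lymphomas, stood at 3.37, 5.05 and 0.98 CPM against 94.0, 79.3, 44.2, 123 and 70.0 CPM. MYBL1, a MYB family factor of dividing germinal centre cells, stood at 7.01 to 11 CPM against 77.5 to 119 CPM. HMCES, a shield for abasic sites in DNA, stood at 2.39 to 4.66 CPM against 28.2 to 141 CPM, with the widest values, 28.2 in Het_7 and 141 in WT_4, both inside the BCL6-high set. MEF2B, a direct activator of BCL6, stood at 228, 202 and 179 CPM against 470 to 752 CPM, and POU2AF1 (OCA-B), the B cell coactivator of octamer factors, at 319 to 359 CPM against 953 to 1281 CPM.

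The confining receptors of the germinal centre followed the same direction. S1PR2 stood at 14.8 to 18.2 CPM against 50.8 to 87.6 CPM, P2RY8 at 105 to 121 CPM against 222 to 271 CPM, and RGS13, which dampens chemokine signals, at 128 to 173 CPM against 317 to 484 CPM. GNA13, which couples both receptors, was 0.89 lower on the log2 scale, under the limit. BACH2, a repressor of PRDM1, was 1 of the 2 separating members in the opposite direction and stood at 93.7, 77.5 and 137 CPM against 41.6 to 56.8 CPM. EZH2, MEF2C and STAP1 differed by less than 2-fold, at -0.27, -0.05 and -0.41.

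Genes of activated B cell-like lymphoma went the other way in part. Of 17 tested genes (18 listed), 4 were separating and higher and none lower, beside 5.15% and 6.78% of all genes. The median was 0.48. ETV6, a repressor of the ETS family, stood at 19.6, 27.1 and 23 CPM against 2.18 to 4.19 CPM. SH3BP5, an inhibitor of BTK, stood at 53.9 to 84.9 CPM against 16.5 to 22 CPM, and LIMD1 at 27.6 to 31.8 CPM against 6.89 to 13.0 CPM. CD44, a receptor for hyaluronan, stood at 41.4 to 92.1 CPM against 10.7 to 40.2 CPM, where Het_8 and Het_7 all but met. Its difference of 1.16 fell under the 2-fold limit without WT_5 (0.85) or WT_1 (0.86). IRF4, the factor most used to define that class, differed by 0.29 and FOXP1 by 0.39, each without overlap. BATF was lower (-0.90).

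**Figure D3:**
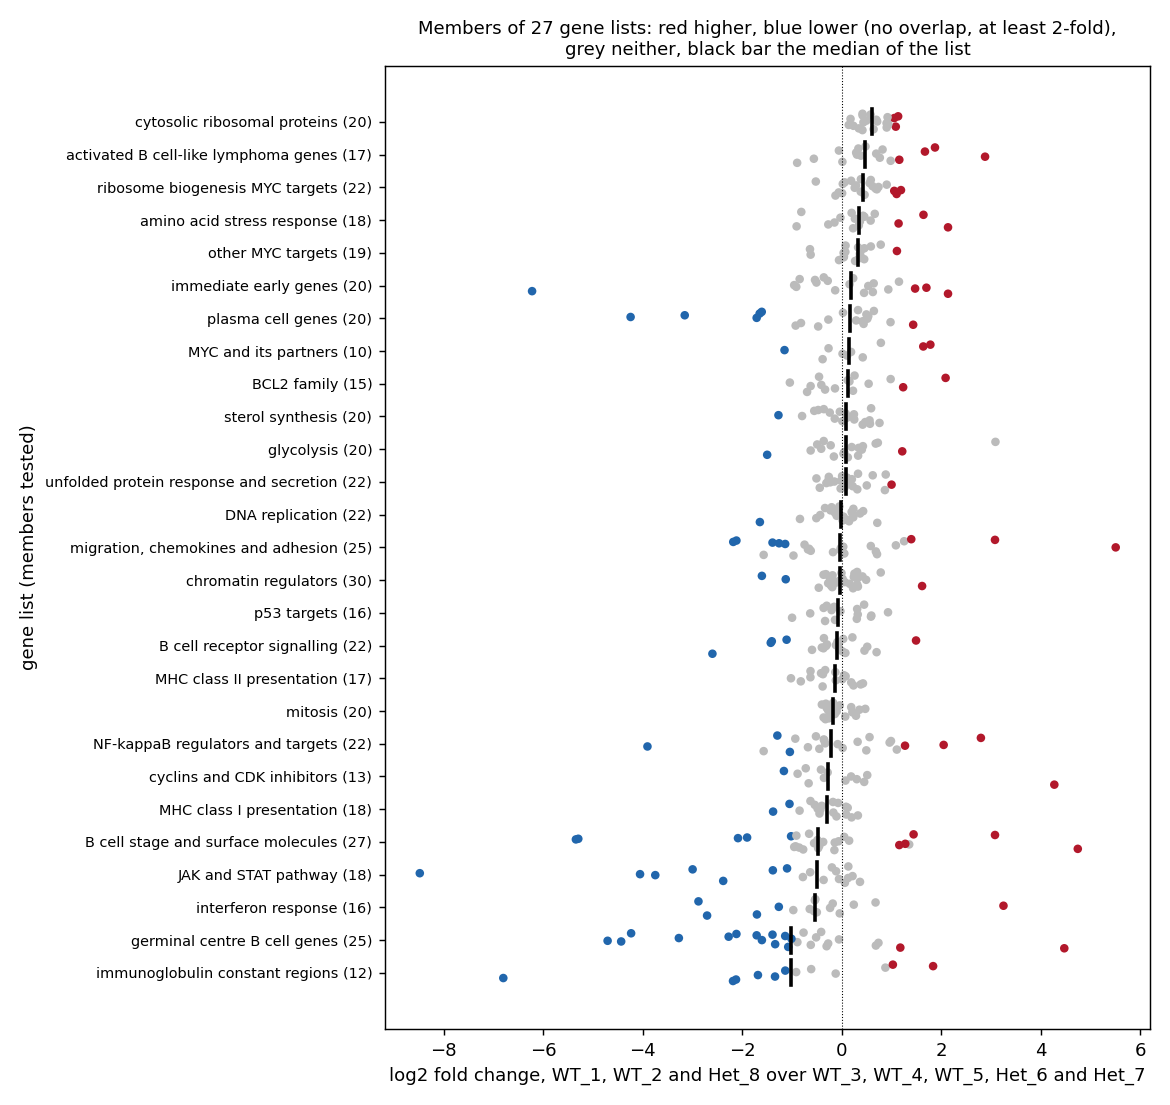
Log2 fold change, MYC-high over BCL6-high set, of every tested member of 27 gene lists, ordered by the list's median (black bar); red and blue points are separating genes and the numbers in brackets count the members tested. Germinal centre genes and immunoglobulin constant regions have the lowest medians, near -1, ribosomal proteins the highest, and mitosis, p53 and MHC class II lists hold no separating gene.

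The plasma cell list was mixed, although PRDM1 led it. Of its 20 genes, 5 were separating and lower and 1 higher, beside 6.78% and 5.15% of all genes. The median was 0.16. SDC1 (CD138), a proteoglycan that marks plasma cells, stood at 0.31, 3.10 and 0.87 CPM against 7.65 to 17.4 CPM. TNFRSF17 (BCMA), a survival receptor, stood at 37.5 to 74.6 CPM against 137 to 219 CPM, and SLAMF7 at 6.83 to 13.7 CPM against 25.6 to 34.8 CPM. The others were PRDM1 and POU2AF1, which is also on the germinal centre list. XBP1 (0.33), IRF4 (0.29) and the secretory genes FKBP11 (0.98), TXNDC5 (0.65) and SEC11C (0.50) were level or higher. CREB3L2, a membrane-bound factor of the secretory pathway, was separating and higher at 110 to 140 CPM against 40.2 to 48.1 CPM. Of 22 genes of the unfolded protein response and secretion, ERN1 was the only separating one.

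Antibody genes separated the sets as well. IGHD, the constant region of IgD, stood at 1.1, 0.54 and 1.08 CPM against 90.1, 131, 91.4, 117 and 78.0 CPM, a log2 fold change of -6.80 (SE 0.30). IGHM, which both sets transcribed at high level, stood at 4305 to 4839 CPM against 8789 to 11659 CPM. IGHG1 stood at 219 to 235 CPM against 528 to 638 CPM and IGHA1 at 40.7 to 58.0 CPM against 134 to 341 CPM. Of 12 tested constant regions (14 listed), 6 were separating and lower, and IGLC2 and IGLC3, of the lambda light chain, higher. IGLC2 stood at 38 to 43.2 CPM against 7.74 to 17.8 CPM. Of 21 tested variable segments, 10 were separating and lower and none higher, with a median of -1.10. Among all genes, 6.78% were separating and lower and 5.15% higher. Constant and variable genes have near-identical copies, and reads could be split between copies, since no counting options are stated in the labels.

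Genes that carry cytokine signals through JAK and STAT proteins were lower in part, at each layer of the pathway. Of 18 tested genes (20 listed), 7 were separating and lower and none higher, beside 6.78% and 5.15% of all genes. The median was -0.50. Among receptors, IL10RA stood at 71.6, 72.6 and 48.8 CPM against 277 to 404 CPM. The kinase JAK3 stood at 2.22 to 3.07 CPM against 25.2 to 40.9 CPM, while JAK1 (-0.78), JAK2 (0.22) and TYK2 (0.13) stayed within 2-fold. STAT3, STAT5A and STAT5B, which lie side by side on chromosome 17, were all separating. STAT3 stood at 47.0 to 59.1 CPM against 84.7 to 191 CPM and STAT5B at 45.7 to 63.2 CPM against 109 to 143 CPM.

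The feedback inhibitors SOCS1 and SOCS3, which are transcribed in response to active STAT proteins, showed the widest differences in the pathway. SOCS1 stood at 0.86, 1.09 and 1.36 CPM against 25.1, 19, 21.5, 15.1 and 12.5 CPM. SOCS3 had 0.06 CPM, no count and 0.11 CPM in WT_1, WT_2 and Het_8, and stood at 53.7, 32.8 and 25.2 CPM in WT_3, Het_6 and Het_7 but at 1.58 and 0.72 CPM in WT_4 and WT_5. The BCL6-high set thus held 3 libraries with SOCS3 and 2 nearly without. The cytokine IL10, the ligand of IL10RA, stood at 0.31, 0.38 and 0.71 CPM against 9.89, 2.45, 4.92, 11.3 and 7.45 CPM, again lowest in WT_4 and WT_5 within its set. IL2RA, the high-affinity interleukin 2 receptor chain, was chosen after its values were seen and was higher, at 25.6 to 31.0 CPM against 0.55 to 4.61 CPM. BCL6 itself is a described STAT target. Its RefSeq window from 250 bases before to 50 bases after the start (GRCh38.p14, chr3:187745419-187745718, minus strand) is shown because it holds 4 matches to the STAT-type motif TTCNNNGAA (palindromic, so read on both strands), in capitals.
BCL6: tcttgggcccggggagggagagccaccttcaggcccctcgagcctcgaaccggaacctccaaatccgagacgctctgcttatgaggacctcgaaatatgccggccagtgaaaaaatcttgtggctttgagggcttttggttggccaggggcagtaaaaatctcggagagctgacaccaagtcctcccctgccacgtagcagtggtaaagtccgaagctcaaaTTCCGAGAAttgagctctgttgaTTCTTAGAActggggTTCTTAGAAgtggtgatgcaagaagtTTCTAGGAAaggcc
That motif was chosen after the data were seen. It was found in 9.39% of the windows of separating higher genes, 9.17% of separating lower and 8.39% of all tested genes with a window (7.66% of all windows of this length). Of 17 JAK and STAT pathway genes with a window, 0 held it.

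MYC target genes were higher by small steps. Of 22 ribosome biogenesis genes, 16 were higher without overlap and 1 lower, beside 22.4% and 23.6% of all genes. Only 3 passed the 2-fold limit, and the median was 0.42. NCL (nucleolin) stood at 1546, 1545 and 1456 CPM against 668 to 816 CPM, NOLC1 at 416 to 441 CPM against 177 to 210 CPM and FBL (fibrillarin), which methylates ribosomal RNA, at 429, 502 and 438 CPM against 186 to 234 CPM. NPM1 (0.74), NOP56 (0.68), NOP16 (0.71) and POLR1B (0.91) were higher without overlap, while RRS1 was lower (-0.52). Of 19 other tested MYC targets (20 listed), PPAN was the only separating one, at 127 to 158 CPM against 61.6 to 71.4 CPM. Without a fold limit, 9 were higher and 2 lower with no overlap, and the median was 0.33. The classical targets ODC1 (0.07) and NME1 (0.04) were level, and LDHA was lower (-0.62). Among the partners of MYC, MAX differed by -0.38. MXI1, which competes with MYC for MAX, was higher at 14.2 to 20.2 CPM against 3.60 to 8.22 CPM, and MXD3, of the same group, lower at 32.2 to 36.3 CPM against 53.7 to 120 CPM.

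The E-box CACGTG, the site that MYC and MAX prefer, is palindromic and was looked for in the same promoter windows. The window of FBL (GRCh38.p14, chr19:39846330-39846629, minus strand) is shown as that of a separating ribosome biogenesis gene with a match, in capitals, 6 bases past the start.
FBL: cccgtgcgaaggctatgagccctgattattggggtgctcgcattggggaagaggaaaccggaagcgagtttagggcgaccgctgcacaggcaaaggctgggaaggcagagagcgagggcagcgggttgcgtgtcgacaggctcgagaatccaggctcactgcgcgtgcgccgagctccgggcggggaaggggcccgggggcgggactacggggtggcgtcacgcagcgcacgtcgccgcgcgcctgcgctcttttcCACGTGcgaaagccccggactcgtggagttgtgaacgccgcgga
The motif was in 8 of 17 windows of ribosome biogenesis genes and 10 of 18 of the other MYC targets. It was in 12.8% of all tested genes with a window and 7.26% of all windows of this length. Separating genes held it about as often in either direction, 10.9% of those higher and 11% of those lower. A match describes these letters only.

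Cytosolic ribosomal protein genes were higher by a similar small step. Of 20 listed genes, all were above 0, 16 without overlap, and 3 passed 2-fold, with a median of 0.61. RPL3 stood at 2768, 3319 and 2872 CPM against 1273 to 1540 CPM, RPS19 at 1378 to 1484 CPM against 565 to 778 CPM and RPS24 at 759 to 925 CPM against 340 to 469 CPM. Of 95 genes with symbols like those of ribosomal proteins, 73 were higher without overlap and 2 lower, and 9 were separating and higher and 1 lower. A search by symbol can also take in genes for other proteins. Many ribosomal protein genes have processed copies in the genome that could share reads. Mitochondrial ribosomal proteins (79 genes, median 0.08) held no separating gene. Nor did genes with respiratory chain symbols (101 genes, median -0.06), which can include assembly factors besides subunits. Without a fold limit, 23 mitochondrial ribosomal proteins were higher and 8 lower with no overlap, and 12 and 28 genes with respiratory chain symbols. Among all genes, 22.4% were higher and 23.6% lower with no overlap.

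Genes of NF-kappaB signalling parted in both directions, 3 higher and 3 lower of 22 tested (24 listed), beside 5.15% and 6.78% of all genes. The median of the list was -0.21. The 3 higher ones are the neighbouring cytokine genes of the tumour necrosis factor family on chromosome 6. TNF stood at 226, 278 and 350 CPM against 28.8, 51.0, 30.7, 57.8 and 40.0 CPM, LTB at 33.7 to 72.3 CPM against 7.61 to 23.8 CPM and LTA at 60.2 to 134 CPM against 25.5 to 56.4 CPM. Het_8 had the highest TNF and the lowest LTB and LTA of its set. The lower ones were IL10, TRAF1 (25.8 to 28.2 against 51.7 to 75.2 CPM) and BIRC3 (139 to 145 against 207 to 398 CPM). The subunits NFKB1, NFKB2, REL and RELA lay between -0.08 and -0.36.

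Of 22 tested B cell receptor genes (23 listed), 4 were separating and lower and 1 higher, beside 6.78% and 5.15% of all genes. BANK1, a scaffold of the receptor, stood at 2.5 to 4.5 CPM against 14.1 to 24.9 CPM. PIK3CD, PRKCB and RASGRP3, which carry the signal to AKT, NF-kappaB and RAS, were lower by -1.43, -1.40 and -1.11. PTPN6 (SHP-1), a phosphatase that dampens the receptor, stood at 47.8, 59.7 and 32.5 CPM against 13.9 to 18.9 CPM. The kinases SYK (0.03), LYN (-0.31) and BTK (0.46) were within 2-fold. Among immediate early genes, which follow such signals, EGR2 (33.6 to 65.5 against 8.49 to 29.0 CPM) and EGR3 (34.7 to 52.9 against 6.83 to 19.3 CPM) were separating and higher. DUSP4, a phosphatase of MAP kinases, was lower at 0.05 to 0.27 CPM against 1.09 to 17.5 CPM.

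The cell surface differed in 10 of 27 tested stage and surface molecules (32 listed), 5 in each direction, beside 11.9% of all genes. Without a fold limit, 14 were lower and 5 higher with no overlap, beside 23.6% and 22.4% of all genes. The median was -0.47. The B cell genes MS4A1 (-0.91), PAX5 (-0.64), CD79B (-0.37) and CD79A (-0.14) lay below 0 by less than 2-fold. CD9, a tetraspanin, stood at 2.58, 1.74 and 2.22 CPM against 79.8 to 99.8 CPM, and CR2 (CD21), the complement receptor of mature B cells, at 0.54 to 1.30 CPM against 22.5 to 39.1 CPM. FCGR2B, FCRL2 and IL4R were the other lower ones. CD24 stood at 6.07, 7.5 and 20.5 CPM against 0.14 to 0.78 CPM, and CD70 at 61.6 to 73.8 CPM against 23 to 37.5 CPM. Among adhesion molecules, ITGA4, the alpha chain of the integrin VLA-4, stood at 69.4, 67.8 and 49.1 CPM against 2.28, 0.60, 0.21, 0.89 and 2.74 CPM, a log2 fold change of 5.51 (SE 0.53). Het_9 and Het_10 had ITGA4 too, at 37.5 and 26.2 CPM. RGS1 and RGS2, regulators of G protein signals, were lower, RGS2 at 36.6 to 52.2 CPM against 191 to 214 CPM. EPCAM, listed as an epithelial marker, was the only separating gene of the other cell types. It stood at 3.31, 1.41 and 13.6 CPM against 19.6 to 26.6 CPM, -2.17 on the log2 scale and -3.28 without Het_8. Summed without EPCAM, the 26 markers came to 1.17 to 3.58 CPM in the MYC-high and 1.70 to 2.59 CPM in the BCL6-high set, while the epithelial keratins KRT8 and KRT18 were at 0.16 CPM or less.

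Interferon response genes were low in both sets, and 16 of 27 passed the filter. Of these, 4 were separating and lower and 1 higher, beside 6.78% and 5.15% of all genes, with a median of -0.53. OAS3, an activator of RNase L, stood at 1.23, 1.74 and 3.09 CPM against 9.75 to 25.5 CPM. BST2 (tetherin), which holds budding virus at the membrane, stood at 11.1, 12.0 and 4.55 CPM against 38.5 to 73.5 CPM. IFI35 and ISG15 were the others. MX1, a dynamin-like antiviral GTPase, went the opposite way at 0.61, 2.12 and 1.73 CPM against 0.10 to 0.21 CPM. The promoter windows of these 3 genes are shown because they hold the interferon-type motif GAAANNGAAA and differ in direction (searched on both strands, RefSeq, GRCh38.p14, matches in capitals). They lie at chr12:112938224-112938523 (plus strand, OAS3), chr19:17405581-17405880 (minus strand, BST2) and chr21:41420308-41420607 (plus strand, 1 of 3 starts listed for MX1).
OAS3: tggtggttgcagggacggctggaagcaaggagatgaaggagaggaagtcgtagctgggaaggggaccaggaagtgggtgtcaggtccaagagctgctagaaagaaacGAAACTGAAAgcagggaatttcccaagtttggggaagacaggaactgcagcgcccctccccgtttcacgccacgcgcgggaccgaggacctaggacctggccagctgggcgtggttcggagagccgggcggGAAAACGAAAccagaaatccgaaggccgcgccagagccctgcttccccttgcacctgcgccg
BST2: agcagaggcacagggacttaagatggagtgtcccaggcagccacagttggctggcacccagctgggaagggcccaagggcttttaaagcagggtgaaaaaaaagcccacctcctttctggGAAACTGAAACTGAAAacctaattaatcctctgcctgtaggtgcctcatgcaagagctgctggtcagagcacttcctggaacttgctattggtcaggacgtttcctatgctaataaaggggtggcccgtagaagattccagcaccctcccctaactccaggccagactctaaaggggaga
MX1: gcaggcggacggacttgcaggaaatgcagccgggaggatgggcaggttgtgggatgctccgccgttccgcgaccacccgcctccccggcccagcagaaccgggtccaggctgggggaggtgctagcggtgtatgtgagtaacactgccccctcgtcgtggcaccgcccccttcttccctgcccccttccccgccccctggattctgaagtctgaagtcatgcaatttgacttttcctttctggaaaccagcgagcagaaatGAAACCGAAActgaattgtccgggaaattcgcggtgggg
OAS3 and BST2 hold 2 matches each, which overlap in BST2, and MX1 holds 1 in this window. The motif was in 7 of 12 interferon response genes with a window, in 9 of 14 MHC class I genes and in 3.98% of all tested genes with a window (3.57% of all windows of this length). It was in 5.64% of separating higher and 5.09% of separating lower genes.

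In the class I pathway of antigen presentation, 2 of 18 genes were separating, a share near the 11.9% of all genes. Both were lower: HLA-B (341, 286 and 198 CPM against 593 to 815 CPM) and PSMB9, an immunoproteasome subunit (22.1 to 32.0 against 44.8 to 65.6 CPM). HLA-C was lower without overlap (-0.85), and B2M (0.20) was level. None of 17 class II genes was separating, HLA-DRA (0.05) and CIITA (0.24), the master activator, included. Of 15 tested BCL2 family genes (16 listed), which set the threshold of cell death, BCL2 and HRK were separating, a share near that of all genes. Without a fold limit, 6 were higher and 3 lower with no overlap, beside 22.4% and 23.6% of all genes. HRK, a BH3-only promoter of death, stood at 11.2, 6.79 and 16.5 CPM against 1.63 to 3.47 CPM. MCL1 (-0.45), BCL2L11 (0.54) and BMF (0.98) did not reach 2-fold.

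Among genes of cell division, none of 20 mitosis genes and 1 of 22 DNA replication genes was separating, with medians of -0.17 and -0.01. Without a fold limit, 3 mitosis genes were higher and 3 lower with no overlap, and 3 and 7 replication genes, the latter a share near that of all genes. Among all genes, 22.4% were higher and 23.6% lower with no overlap. MKI67, the proliferation antigen, differed by 0.19. The replication gene was CCNE2 (cyclin E2, on chromosome 8), at 15.8 to 23.9 CPM against 56.8 to 78.8 CPM. CCND1 (cyclin D1) was higher, at 1.59, 8.42 and 3.47 CPM against 0.11 to 0.58 CPM, and RB1, the retinoblastoma gene, lower at 21.0 to 24.3 CPM against 44.3 to 55.6 CPM. None of 16 p53 targets was separating. Of 20 glycolysis genes HK2 and ENO2 were separating, a share near the 11.9% of all genes. HK2 was higher (104 to 120 against 19.3 to 89.1 CPM, but 0.96 on the log2 scale without WT_5) and ENO2 lower (14.4 to 29.5 against 57.0 to 76.5 CPM). SLC2A3, a glucose transporter of the same list, had the largest fitted difference (3.09) at low levels that overlapped, 1.25 to 4.84 against 0 to 1.43 CPM. Of 20 sterol synthesis genes only LSS was separating, at -1.27. In the amino acid stress response, ATF3, CHAC1 and SLC7A11 of 18 genes were separating and higher, beside 5.15% of all genes. SLC7A11, the cystine importer, stood at 14.3 to 22.3 CPM against 2.73 to 10.7 CPM. Of 30 chromatin regulators DNMT3A, KAT2B and MEF2B were separating, also a share near that of all genes. DNMT3A was higher (7.91 to 14.7 against 2.55 to 5.19 CPM), and KAT2B, an acetyltransferase, and MEF2B were lower. EP300, the paralogue of CREBBP, differed by 0.31.

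Position along the chromosomes was not used to form the sets, although the genes themselves were. Tested genes were placed in 10 Mb windows with at least 10 genes each, and a window was counted where its median lay at least 0.25 (log2) from the median of all genes. Of 283 windows, 86 were shifted (30.4%), 44 higher and 42 lower. Of these, 31 had no neighbouring window that was shifted the same way and 55 had at least 1, with 41 in 7 stretches of at least 3. The longest ran along chromosome 8 from 20 to 140 Mb. There 244 of 291 genes lay below 0, and the median was -0.51. WT_1, WT_2 and Het_8 lay -0.43, -0.45 and -0.66 from the mean of the BCL6-high set, whose libraries stayed within -0.06 to 0.05. MYC lies inside this stretch and went against it. Its neighbours NSMCE2 (-0.96), TRIB1 (-0.90), CYRIB (-0.45) and EFR3A (-0.49) were lower. ASAP1 (-0.19) was nearly level, and LRATD2 (2.97, at 1.84 to 2.61 against 0.05 to 0.94 CPM, and 4.30 without Het_8) was higher like MYC.

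The next longest stretch was chromosome 10 from 50 to 140 Mb, where 255 of 306 genes lay above 0 with a median of 0.50. It holds PDCD4, PDLIM1, MXI1, NOLC1, RPS24 and EGR2, all separating and higher. Chromosome 2 had higher stretches at 100 to 170 Mb (139 genes, median 0.52) and 220 to 250 Mb (80 genes, 0.48, with NCL inside). Chromosome 3 from 170 to 200 Mb, which contains BCL6 and KLHL6, was higher by a median of 0.28 over 110 genes, so both genes went against their surroundings, as MYC did. WT_1 and WT_2 lay 0.36 and 0.34 above the BCL6-high mean there and Het_8 0.15. Chromosome 13 from 30 to 60 Mb was lower (91 genes, -0.33, with RB1 inside), and chromosome 22 from 10 to 50 Mb higher (275 genes, 0.27, with RPL3 inside). Around BCL2, KDSR (0.96), ZCCHC2 (0.44) and VPS4B (0.34) were higher without overlap, and PHLPP1 was not (-0.25).

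**Figure D4:**
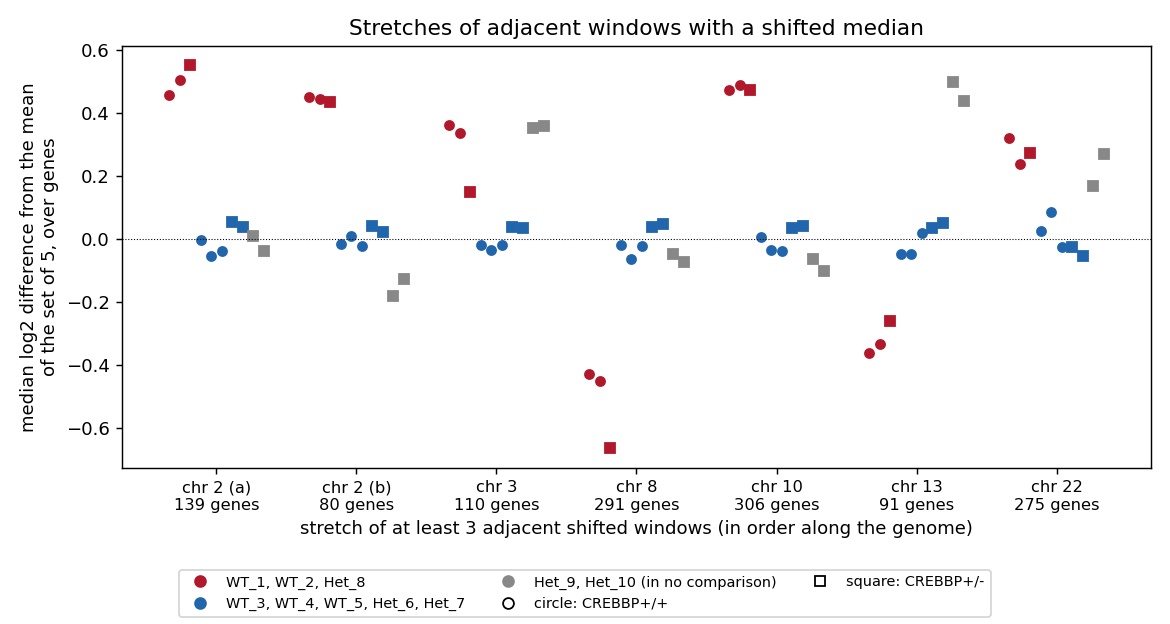
Median log2 difference from the mean of the BCL6-high set over the genes of each of the 7 stretches of at least 3 adjacent shifted windows, 1 point per library. WT_1, WT_2 and Het_8 lie between 0.15 and 0.55 in the 5 higher stretches and between -0.66 and -0.26 on chromosomes 8 and 13, while Het_9 and Het_10 share only the shifts of chromosomes 3 and 22 and lie on the opposite side on chromosome 13.

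On a smaller scale, 11 runs of at least 4 neighbouring protein-coding genes were all separating in the same direction, 6 higher and 5 lower. This search was made after the data were seen. The run FCRL4, FCRL3, FCRL2, FCRL1 and CD5L on chromosome 1 (157573747 to 157898256) holds Fc receptor-like genes of B cells and was lower. FCRL3, the most abundant, stood at 12.8, 19.1 and 21.0 CPM against 168 to 231 CPM, and FCRL4 differed by -2.05, or -3.12 without Het_8. PARP9, DTX3L, PARP15 and PARP14 on chromosome 3 were lower, PARP14 at 2.88, 9.83 and 7.91 CPM against 18.4 to 32.0 CPM. On chromosome 8, PLPP5, NSD3, LETM2, FGFR1 and TACC1 were lower, FGFR1 at 12.3 to 15.2 CPM against 39.3 to 63.5 CPM. APOBEC3C, APOBEC3D and APOBEC3G, cytidine deaminases that act on viral DNA, were higher together with CBX6 on chromosome 22. APOBEC3C stood at 13.2, 13.6 and 6.51 CPM against 0 to 0.72 CPM. Of 226 tested ZNF genes of chromosome 19, 34 were separating and higher and 3 lower, beside 5.15% and 6.78% of all tested genes. Of the 11 runs, 3 lay among them.

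The run CHMP2B, CGGBP1, ZNF654 and C3orf38 on chromosome 3 (87227271 to 88168729) had the most even values. CGGBP1, which binds CGG repeats, stood at 622, 607 and 638 CPM in WT_1, WT_2 and Het_8, at 131, 143, 144, 140 and 131 CPM in the BCL6-high set and at 963 and 861 CPM in Het_9 and Het_10. The other genes of the run kept the same order, with C3orf38 at 119 to 123, 25.9 to 30.6 and 219 to 228 CPM. The 3 groups of libraries thus formed 3 steps that did not overlap.

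The difference was also taken within each genotype. The clustering placed every library by these same counts, so that likeness between the genotypes follows in part from the choice of the sets and is a description only. The CREBBP+/+ libraries (WT_1 and WT_2 over WT_3, WT_4 and WT_5) and the CREBBP+/- libraries (Het_8 over Het_6 and Het_7) share no library. Of 606 genes at least 2-fold higher without overlap in the CREBBP+/+ libraries, 404 (66.7%) were at least 2-fold higher in the CREBBP+/- libraries, as were 5.56% of all tested genes, 195 were higher by less and 7 were lower. Of 874 lower ones, 533 (61.0%) were at least 2-fold lower there, against 6.45% of all, 312 lower by less and 29 higher. Of the separating lower genes, 23 had at least 10 CPM in the BCL6-high set and under 2% of that level in WT_1 and WT_2. The separating rule had already placed Het_8 below every BCL6-high library in these genes. The level of Het_8 in them was a median 0.96% of the BCL6-high level. It was over 5% in LONRF2 (31.2%) and MYO6 (15%) only.

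**Figure D5:**
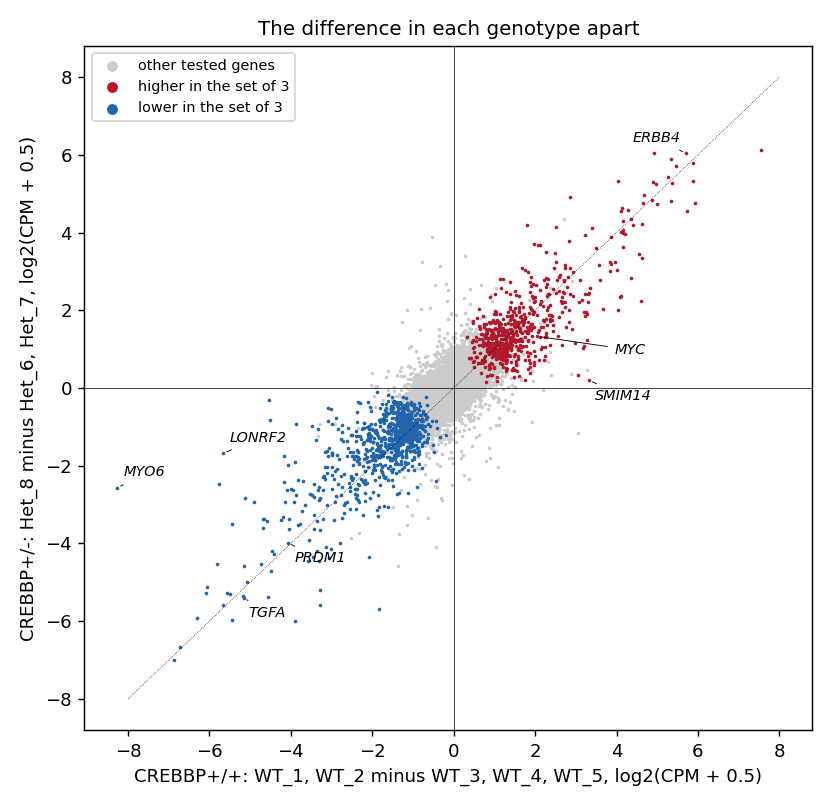
Difference in log2(CPM + 0.5) between the sets for each of 12179 genes, in the CREBBP+/+ libraries (horizontal) and in the CREBBP+/- libraries (vertical); red and blue mark separating genes and the dotted line equal differences. MYC, ERBB4, PRDM1 and TGFA lie near that line, and MYO6, LONRF2 and SMIM14 far from it.

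Genotype comes from the labels and was not used to form the sets, so it could be tested within them. With the set as a covariate, edgeR's quasi-likelihood test with Benjamini-Hochberg adjustment called 0 of 12179 genes (0%) between CREBBP+/- and CREBBP+/+. At an unadjusted p under 0.05 it gave 1321 genes, and DESeq2 called 145. CREBBP itself differed by -0.76 (log2, SE 0.11) at an adjusted p of 0.284 in edgeR, and was called by DESeq2 at an adjusted p of 2.80e-06. It was lower in 3 of 3 CREBBP+/- libraries than in every CREBBP+/+ library. Without WT_3 edgeR called 46 genes.

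Whether the genotypes differ unlike in the 2 sets was asked with an interaction term. The term rests on Het_8 as the only CREBBP+/- library of the MYC-high set and assumes that Het_8 varies like the others. On simulated data, described with the processing, false calls of this term outnumbered the genes that edgeR called here. edgeR called 10 genes (0.0821%), 1581 (13%) passed an unadjusted p of 0.05, and DESeq2 called 209, the 10 among them. Without WT_1 or WT_2 edgeR called 1 gene, without WT_5, Het_6 or Het_7 none, and without WT_3 290, so the calls depend on single libraries. Of the 10, 3 are class II genes. HLA-DQA1, the alpha chain of HLA-DQ, stood at 116 and 118 CPM in WT_1 and WT_2 and at 14.3 CPM in Het_8, against 121, 158 and 156 CPM in WT_3, WT_4 and WT_5 and 102 and 115 CPM in Het_6 and Het_7. Its interaction was -2.62 (SE 0.23, edgeR adjusted p 0.0229). HLA-DRB5 stood at 54.2 and 48.2 CPM in WT_1 and WT_2 and 4.45 CPM in Het_8, against 21.4 to 52.0 CPM, with an interaction of -2.63 (edgeR adjusted p 0.0499), and HLA-DQA2 of -1.77 (0.0499). These genes have near-identical copies that could share reads.

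In 4 of the other 7 Het_8 stood between its own set and the BCL6-high set. MYO6, an actin motor, stood at 0.25 and 0.81 CPM in WT_1 and WT_2, at 43.9 CPM in Het_8 and at 203 to 372 CPM in the BCL6-high set, with an interaction of 6.56 (SE 0.64, edgeR adjusted p 0.0386). Its difference between the sets was -4.98, or -9.15 without Het_8. LONRF2 stood at 0.31, 0.33 and 13.3 CPM against 30.8 to 55.5 CPM, THSD7B at 1.41, 1.20 and 9.22 CPM against 12.9 to 16.0 CPM and MAB21L1 at 0.12, 0.11 and 1.95 CPM against 8.42 to 10.3 CPM. RILPL2 stood at 149 and 156 CPM in WT_1 and WT_2 but at 69.4 CPM in Het_8, inside the BCL6-high range of 63.2 to 72.1 CPM. SMIM14 was the reverse: Het_8 matched WT_1 and WT_2 (129 against 153 and 132 CPM), and Het_6 and Het_7 stood at 113 and 112 CPM while WT_3, WT_4 and WT_5 stood at 9.43 to 18.0 CPM.

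Within the BCL6-high set WT_4 and WT_5 stood apart from WT_3, Het_6 and Het_7. The second principal component (12.8% of the variance) gave them 18.6 and 23.5 and the others -16.0 to -12.5, and the third (6.11%) set Het_8 apart. Genes were counted where WT_4 and WT_5 did not overlap the other 3 and the group means (log scale) differed at least 2-fold. Among separating genes higher in the MYC-high set, WT_4 and WT_5 lay above the other 3 in 5 such genes and below in 51. Among lower ones the numbers were 30 and 34. MYC, STAT3, SOCS3 and HK2 were among genes with lower values in WT_4 and WT_5, and CUX2, KCNQ1 and OAS3 among those with higher ones. Levels spread over more than 4-fold inside the BCL6-high set in 38 of the 627 higher and 40 of the 826 lower genes, and inside the MYC-high set in 2 and 27.

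Het_9 and Het_10 took neither side throughout. Of the 627 genes higher in the MYC-high set, both lay on the side of the BCL6-high set in 256, on that of the MYC-high set in 84 and between the sets in 144, and in 143 they did otherwise. Of the 826 lower ones the numbers were 318, 71, 238 and 199. IGHD (6.43 and 9.80 CPM), FCRL3 (47.7 and 24.2 CPM) and PRDM1 lay between the sets, HDGFL3 (16.3 and 16.9 CPM, against 18.0 to 20.6 and 0.09 to 0.34 CPM) close to the MYC-high set, and SERPINA9 (508 and 442 CPM) and CD9 (91.4 and 82.4 CPM) near the BCL6-high set. Root mean square differences in log2 CPM over genes ran from 0.47 to 0.53 to the BCL6-high set and from 0.60 to 0.64 to the MYC-high set.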

How the data were processed

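RNA of 10 U2932 clones was sequenced after TruSeq library preparation, per the labels' protocols. The authors deposited raw read counts per gene, with 1 column per library. Per the submitters' processing notes, the build was GRCh38 and the tools included STAR and featureCounts, besides FastQC and DESeq2. Annotation and strand use are not given in the sources used. The deposited counts of 10000 or more carry 4 significant digits. The CREBBP+/- columns have numbers (Het_6 to Het_10) that no labelled clone carries, so their genotype was read from the column prefix and no column was paired with a labelled clone.

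The 8 libraries were fitted with edgeR 4.0.16 in R 4.3.3 (TMM, filterByExpr with a minimum count of 10 and a total of 15, robust quasi-likelihood), which kept 12179 of 21174 genes. Terms were genotype and set, plus their interaction in the second fit, with Benjamini-Hochberg adjustment, two-sided, at 0.05. CPM used TMM-scaled library sizes. Each SE is the size of the log2 fold change divided by the square root of the quasi-likelihood F value of its term. The fit was tested on simulated data made from these libraries, with 12179 genes per run. Changes were put only into a sample of genes above a minimum mean CPM, so recovery in genes with low counts was not measured. Simulated libraries varied independently around 1 mean per gene, without the grouping seen inside the BCL6-high set. For the set contrast, 99% of changes of 1.5 (log2) and 100% of 3 were recovered, with 29 false calls among the unchanged genes. For the interaction the shares were 74% and 96%, with 20 false calls. DESeq2 1.42.0, DESeq2 size factors, other filters and fold limits, no genotype term, a level of their own for Het_9 and Het_10, 20 Mb windows and leaving out each library were the alternatives. Coordinates are those of GENCODE on GRCh38, which holds 20804 of the gene identifiers. Promoter windows come from RefSeq on GRCh38.p14 and were matched by symbol for 9586 tested genes.

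The 28 lists held 560 genes, 559 of them in the table. Named were the 6 marker genes, the 15 genes per direction with the largest difference among separating protein-coding genes at 10 CPM or more, up to 4 separating members per list, genes called by the genotype or interaction test, and CREBBP. Some genes that these rules name are not reported here. Other genes in the text were chosen after their values were seen. The sets, the markers and the lists were chosen with earlier results of these data known.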

Additional observations from a re-analysis of the deposited data

Results flagged for a closer look

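In 13 of 158 named genes, 1 library of the BCL6-high set stood apart from the other 4 by Dixon's criterion, which chance meets in about 1 group in 20, or about 8 of these genes. WT_5 was that library in 6, Het_7 in 4, WT_4 in 2 and Het_6 in 1. WT_5 was lowest in CD44 (10.7 CPM, next 30.6), CHAC1 (2.17 CPM, next 3.98) and MSR1 (0 CPM, next 0.04). It was highest in ERBB4 (0.10 CPM), NUDT11 (0.0517 CPM) and UGGT2 (0.10 CPM), which had no count in the 4 others. Het_7 was lowest in SLC9A3-AS1 (18.7 CPM, next 22.5), and highest in CCND1 (0.58 CPM, next 0.21), CELF2 (0.87 CPM, next 0.05) and STS (0.0481 CPM, the others without a count). WT_4 was highest in LTB (23.8 CPM, next 10.1) and THSD7B (16.0 CPM, next 13.7), and Het_6 in PCSK6 (0.0425 CPM, the others without a count). In ERBB4, NUDT11, PCSK6, STS and UGGT2 the 4 others were at 0, so that any count meets the criterion, and 8 genes are left without them. MSR1 is among those 8, although it stood at 0.05 CPM or less throughout the BCL6-high set and rests on single counts as well. The values of NUDT11, PCSK6 and STS rest on 1 count.

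The interaction of genotype and set was called in 10 genes by edgeR with Benjamini-Hochberg adjustment. Its CREBBP+/- arm of the MYC-high set is Het_8 alone, and none of the 10 was called without WT_1, WT_2, WT_5, Het_6 or Het_7. The term was -2.62 in HLA-DQA1, -1.77 in HLA-DQA2, -2.63 in HLA-DRB5, -3.12 in SMIM14 and -1.27 in RILPL2, and 5.29 in LONRF2, 4.13 in MAB21L1, 6.56 in MYO6, 1.73 in SLC9A3-AS1 and 2.88 in THSD7B, all on the log2 scale. Adjusted p-values of edgeR ran from 0.0229 to 0.0499. In SLC9A3-AS1, an antisense gene, Het_8 stood at 30.7 CPM, above WT_1 and WT_2 (11 and 9.40 CPM) and above the BCL6-high set (18.7 to 23.2 CPM). Without strand, its reads and those of its partner gene cannot be told apart.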

How the results depend on the processing

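Counts of separating genes, 627 higher and 826 lower, stayed within 1.5 times under DESeq2 (637 and 816), DESeq2 size factors, both other filters (547 and 750 at 1 CPM in 3 libraries, 894 and 942 unfiltered), no genotype term and a level of their own for Het_9 and Het_10. Leaving out each library gave 631 to 671 and 827 to 1010, the most without Het_8. Only the fold limit moved them: 1388 and 1575 at 1.5-fold, 2724 and 2874 with none. Windows of 20 Mb left 17 higher and 19 lower shifted ones, since there are fewer windows, and leaving out each library 40 to 49 and 37 to 40. The genotype by set interaction called 16 genes without a filter, 31 with that added level, 209 in DESeq2 and 0 to 290 as each library but Het_8 was left out (0 without WT_5, Het_6 or Het_7, 1 without WT_1 or WT_2, 10 without WT_4, 290 without WT_3). Without Het_8 it could not be fitted. The genotype effect with the sets as a covariate called 145 genes in DESeq2 and 0 to 46 as each library was left out, 46 without WT_3 and 1 without Het_8. The cause was not tested. Of 138 separating named genes, 10 came under 2-fold as 1 library was left out (CD44, CHAC1, ERN1, HK2, MXD3, NSD3, PARP15, RPL3, RPS19 and STAT5B), and in 38 the fold moved by over 1.5 times, in 30 of them without Het_8. No difference of the 158 named genes changed direction where it was called. Of their values, 1476 moved little while 104 moved by more than the spread. For the medians of the 28 lists, 228 values moved little and 24 by more than the spread. A change of direction was not looked for in the lists. No paired analysis was possible because the CREBBP+/- columns carry numbers that no CREBBP+/+ library carries. With 1 CREBBP+/- library in the MYC-high set, and genes under about 1 CPM resting on few counts, small differences there were not detectable.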

Other observations

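Gene families were also counted by symbol, after the data were seen. Of all tested genes, 5.15% were separating and higher and 6.78% lower. Of 25 tested histone genes, 5 were separating and lower and none higher, with a median log2 fold change of -0.67. Of 28 tested interleukins and their receptors, 2 were separating and higher and 6 lower, some of them counted above in lists. Of 224 ZNF genes outside chromosome 19, 12 were higher, a share near that of all genes, and 5 lower, with a median of 0.13. The 15 genes of the mitochondrial genome held no separating gene (median -0.04). Shorter shifted stretches included chromosome 14 from 30 to 50 Mb, where 48 of 50 genes lay above 0 (median 0.53), and chromosome 3 from 50 to 70 Mb (101 genes, -0.38). On chromosome 5 from 0 to 20 Mb the MYC-high set was lower by a median of -0.46 over 41 genes, and Het_9 and Het_10 lay lower still, -1.07 and -0.96 from the mean of the BCL6-high set.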
